A study of Homo sapiens with 2 samples.

Results

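The genes described here are the chaperones, folding enzymes, degradation factors and stress sensors of the endoplasmic reticulum (ER), chosen by name as 36 genes. The choice was made with earlier results of these data known. All 36 were found by gene name among the 27655 genes of the authors' deposited table. RNA was sequenced, after poly-A selection, from routinely cultured PC9-BrM3 cells, a lung cancer line selected from PC9 cells for spread to the brain. The 2 GEO samples are shPCDH1, cells with knockdown of the protocadherin gene PCDH1, and shNC, whose genotype is given as WT. The labels give neither the hairpin sequence nor the number of clones.

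Every fold change, p-value and adjusted p-value here is a value of the authors' deposited table, which sets a group coded 8 over a group coded 7. Neither these codes nor the 6 library codes of the header occur in the labels, so it is not known here which group is shPCDH1, and every direction is that of group 8 relative to group 7. Values per library were not used here, so neither levels nor depth are given. A positive log2 fold change means higher in group 8. The value after ± is a standard error (SE) implied by the authors' p-value if their test was a Wald test, and a 95% interval is built from it. A gene is called where the authors' adjusted p is under 0.05. GEO lists 1 sample per group and the labels do not mention separate cultures, so the p-values measure only a spread between libraries that may be technical.

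Secreted and membrane proteins enter the ER through the Sec61 channel and fold there with the help of the Hsp70 chaperone BiP, the lectins calnexin and calreticulin, and protein disulfide isomerases. Proteins that fail to fold are carried back to the cytosol and degraded, a process called ER-associated degradation. When unfolded proteins build up, the membrane sensors IRE1, PERK and ATF6 start the unfolded protein response. IRE1 cuts XBP1 mRNA so that it is spliced into the form that encodes an active transcription factor, PERK phosphorylates eIF2alpha and slows translation, and ATF6 is cleaved in the Golgi to release a transcription factor. Many chaperone genes carry the ER stress response element (ERSE), at which ATF6 acts together with the CCAAT-binding factor NF-Y.

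ERSE sequences are shown first because they are the DNA through which this response is known to reach chaperone genes. The reference promoters of RefSeq on GRCh38.p14 run from 250 bases before to 50 bases after a RefSeq start. They were searched on both strands for CCAAT and CCACG with 9 bases between them. Of the 36 genes, 33 had a promoter in that table, all but DERL1, DERL3 and PDIA3. An ERSE was present in 8 of these 33 (24.2%), against 25 of all 27305 genes with a promoter (0.0916%). The element is known from chaperone genes, so a larger share among these genes follows from the choice of motif and genes. A RefSeq start can lie inside the gene as the authors' table spans it. By that span the ERSE matches of CRELD2, HSP90B1, CANX and PDIA6 lie inside the gene. Each match is printed below on its own strand, 5′ to 3′, with 6 flanking bases on either side. The CCAAT and CCACG letters are in capitals.
HSPA5, chr9:125241385-125241415, minus strand: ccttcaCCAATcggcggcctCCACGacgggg
HSP90B1, chr12:103930210-103930240, plus strand: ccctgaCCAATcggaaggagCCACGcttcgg
HSP90B1, chr12:103930315-103930345, minus strand: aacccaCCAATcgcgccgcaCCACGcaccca
CALR, chr19:12938378-12938408, minus strand: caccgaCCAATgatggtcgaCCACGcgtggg
CANX, chr5:179698772-179698802, plus strand: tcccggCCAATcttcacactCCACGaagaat
PDIA6, chr2:10812847-10812877, minus strand: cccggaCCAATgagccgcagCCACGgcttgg
CRELD2, chr22:49918548-49918578, minus strand: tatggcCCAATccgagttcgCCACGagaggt
XBP1, chr22:28800597-28800627, minus strand: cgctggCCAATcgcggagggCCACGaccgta
ERO1B, chr1:236282177-236282207, plus strand: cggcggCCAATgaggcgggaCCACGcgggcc

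The whole promoter of HSPA5, the gene for BiP, is printed with motif letters in capitals (chr9:125241294-125241593, minus strand). Its exact match lies 66 to 48 bases before the RefSeq start. Only exact matches are marked, so copies that depart from these letters stay in lower case, and the number of ERSE copies is not given.
HSPA5 promoter: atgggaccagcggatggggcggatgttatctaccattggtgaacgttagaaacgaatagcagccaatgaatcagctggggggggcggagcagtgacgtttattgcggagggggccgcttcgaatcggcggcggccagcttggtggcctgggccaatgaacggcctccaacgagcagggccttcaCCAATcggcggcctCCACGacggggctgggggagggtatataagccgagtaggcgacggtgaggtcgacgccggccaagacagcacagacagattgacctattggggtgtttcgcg

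A related element, ERSE-II, was searched as ATTGG and CCACG with 1 base between them. It was present in 3 of the 33 genes, HERPUD1, HYOU1 and SDF2L1 (9.09%), against 19 of all 27305 (0.0696%). This motif too was chosen as part of the same response, so the contrast is only a description. HYOU1 held 2 copies.
HERPUD1, chr16:56932019-56932041, plus strand: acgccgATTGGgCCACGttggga
HYOU1, chr11:119057268-119057290, plus strand: gtactcATTGGaCCACGtcccag
HYOU1, chr11:119057374-119057396, plus strand: cctgggATTGGaCCACGtcacgg
SDF2L1, chr22:21642108-21642130, minus strand: gttttgATTGGtCCACGcttccg

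Before these genes, the targeted gene was read as a check of the comparison. The authors' deposited table puts PCDH1 at -1.38 ± 0.14 on the log2 scale, which is 38.5% of the group 7 level. This value does not assign the codes to the labels. Of 7 measured leukocyte markers, 4 had an adjusted p below 1 and 4 had negative values. Called higher in group 8 were 2 of them, ITGAM at 5.28 ± 0.85 and CSF1R at 1.84 ± 0.24. The pan-leukocyte gene PTPRC had -0.12 ± 0.69 and CD14 -0.062 ± 0.50, without calls. CD68 had 0.50 ± 1.49, CD3E -2.63 ± 3.26 and CD79A -0.37 ± 1.28, also without calls. MS4A1, LYZ and TYROBP were not found in the authors' table. Of the 18002 genes with an adjusted p below 1, 21.6% were called in either direction. Among 5 epithelial markers CDH1 was called higher at 0.38 ± 0.11 and KRT18 lower at -0.50 ± 0.17, and EPCAM, KRT8 and KRT19 had no call. Levels were not used, so the presence of these markers was not checked, and their part in the results below was not tested.

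Of the 36 ER genes, 6 were higher and 2 lower in group 8 in the authors' deposited table, and 28 were not called. The 6 that rose were both ER oxidase genes, ERO1A and ERO1B, the sensor gene ERN1, which encodes IRE1, the cochaperone gene DNAJB9, the mannosidase-like gene EDEM3 and the phosphatase subunit gene PPP1R15B. The 2 that fell were the disulfide isomerase gene PDIA4 and CRELD2, which encodes a secreted ER stress protein. No member had a value beyond 1 on the log2 scale in either direction, and the range ran from -0.64 for DERL3, which had no call, to 0.91 for ERO1B. Positions of the 8 called genes are those of the authors' table, on GRCh38 by the match to GENCODE release 29. The higher ones are ERO1A (ENSG00000197930) at chr14:52639916-52695900, ERO1B (ENSG00000086619) at chr1:236215555-236281985, ERN1 (ENSG00000178607) at chr17:64039142-64130819, DNAJB9 (ENSG00000128590) at chr7:108569568-108574850, EDEM3 (ENSG00000116406) at chr1:184690231-184754913 and PPP1R15B (ENSG00000158615) at chr1:204403387-204411791. The lower ones are PDIA4 (ENSG00000155660) at chr7:149003062-149028641 and CRELD2 (ENSG00000184164) at chr22:49918167-49927540. In bulk RNA, fewer cells expressing a gene and less RNA per cell cannot be told apart.

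All 36 genes were among the 18002 with an adjusted p below 1, and the authors' adjusted p equals a Benjamini-Hochberg adjustment over those genes. The share of ER genes called, 22.2%, was near the 21.6% over all 18002 genes and the 26.0% over the 13609 protein-coding genes among them. Higher calls made up 16.7% of the ER genes, against 10.4% of the 18002 genes and 12.7% of the protein-coding ones. Lower calls made up 5.56% of the ER genes, against 11.2% of the 18002 genes and 13.4% of the protein-coding ones. The median log2 fold change was -0.054 for the ER genes and -0.0062 for the 18002 genes. Because the ER genes were chosen with earlier results of these data known, these contrasts are only a description.

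**Figure D1:**
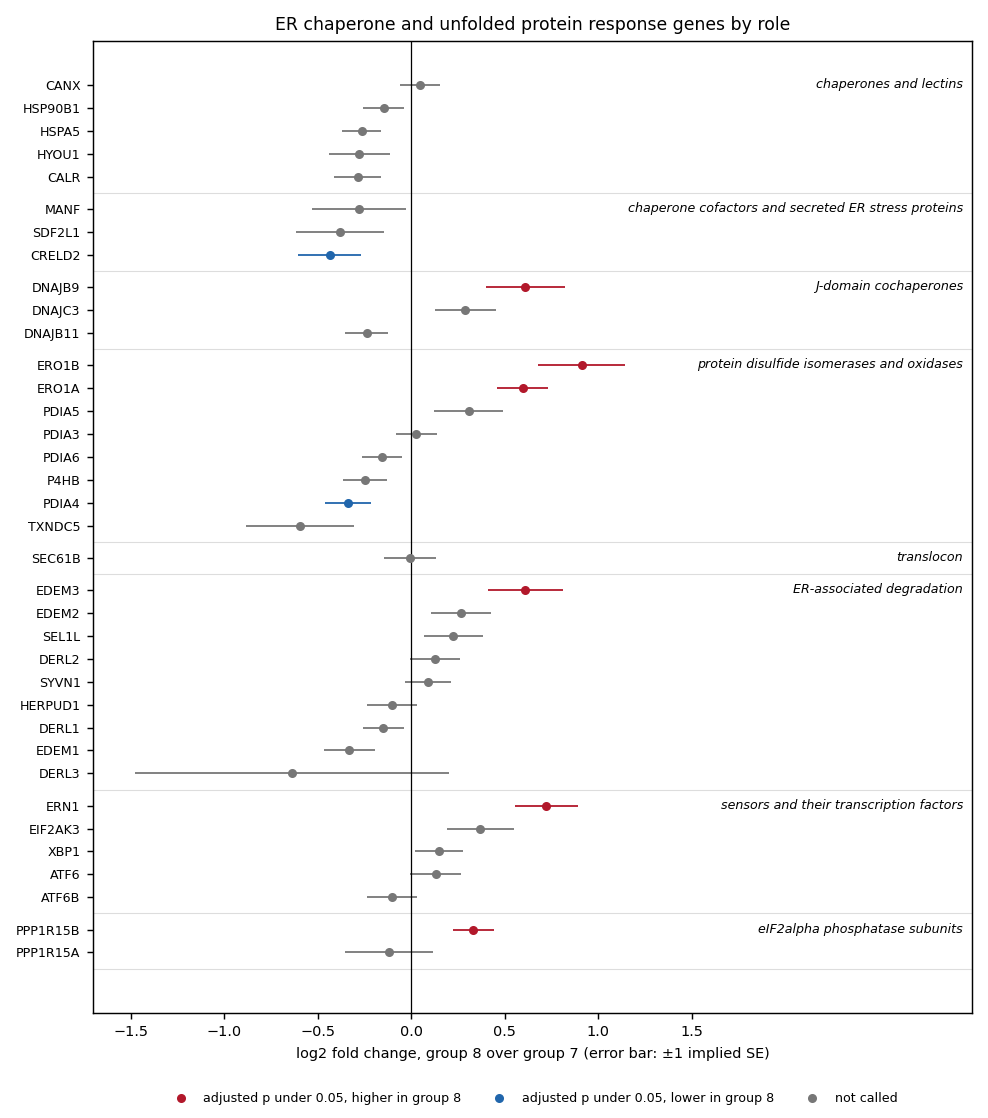
Log2 fold change of each of the 36 genes, group 8 over group 7, on the horizontal axis, with genes grouped by role and error bars of 1 implied SE. The 6 genes called higher (red) lie between 0.33 and 0.91 and the 2 called lower (blue) at -0.34 and -0.44, while the 28 without a call (grey) lie on both sides of 0.

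The main lumenal chaperones had no call. HSPA5, encoding BiP, the Hsp70 of the ER lumen, was at -0.26 ± 0.10 on the log2 scale, with an adjusted p of 0.0513 in the authors' deposited table, just outside the threshold. Its 95% interval ran from -0.47 to -0.060, or 0.722-fold to 0.959-fold of the group 7 level. Adjusted over protein-coding genes alone, its p was 0.0425. CALR, the lumenal lectin calreticulin, had -0.29 ± 0.12 and an adjusted p of 0.0826. HYOU1, a nucleotide exchange factor for BiP, had -0.28 ± 0.16, and HSP90B1, the ER Hsp90, -0.15 ± 0.11. CANX, the membrane-bound lectin calnexin, stood at 0.046 ± 0.11, with an interval of -0.16 to 0.25. Values in this role lay between -0.29 and 0.046, 4 of 5 negative and 0 of 5 called. Of the 18002 genes with an adjusted p below 1, 9092 were negative and 21.6% were called, so these counts are only a description.

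Among the cofactors and secreted stress proteins, CRELD2 fell by 0.44 ± 0.17 on the log2 scale, to 0.739 times the group 7 level, with an adjusted p of 0.0457. Adjusted over every deposited p-value, CRELD2 had 0.0698 and lost its call. SDF2L1, which works with ER J-domain proteins, had -0.38 ± 0.23. MANF, a secreted trophic factor that binds BiP, had -0.28 ± 0.25. Neither was called, and intervals of -0.84 to 0.078 for SDF2L1 and -0.77 to 0.21 for MANF took in both 0 and the CRELD2 value. The J-domain genes, whose products hand substrates to BiP, differed in sign. DNAJB9, encoding ERdj4, which also brings BiP to the lumenal part of IRE1, rose by 0.61 ± 0.21, to 1.53 times the group 7 level, with an adjusted p of 0.0210. DNAJC3 had 0.29 ± 0.16 and DNAJB11 -0.24 ± 0.12, without calls.

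Of the 8 disulfide pathway genes, 2 were called higher, both of them oxidase genes, and 1 lower, an isomerase gene. That is 37.5% called, against 21.6% of the 18002 genes, in a role of few genes. ERO1A and ERO1B pass electrons from the isomerases to oxygen and so recharge them. In the authors' deposited table ERO1B rose by 0.91 ± 0.23, to 1.88 times the group 7 level (95% interval 1.37 to 2.58), with an adjusted p of 0.000998. Of the 18002 genes, 8.20% had a higher log2 fold change than ERO1B. ERO1A rose by 0.60 ± 0.14, to 1.51 times the group 7 level (1.25 to 1.82), with an adjusted p of 0.000241, the smallest among the 36 genes.

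Of the 6 isomerase genes, 1 was called (16.7%, against 21.6% of the 18002 genes). PDIA4, known as ERp72, fell by 0.34 ± 0.12 on the log2 scale, to 0.791 times the group 7 level, with an adjusted p of 0.0281. P4HB, the founding isomerase and a subunit of collagen prolyl hydroxylase, had -0.25 ± 0.12, PDIA6 -0.16 ± 0.11 and TXNDC5 -0.60 ± 0.29. PDIA3, which works with calnexin and calreticulin, had 0.028 ± 0.11, and PDIA5 0.31 ± 0.19. The median of the 6 was -0.20. The difference between the oxidases and the isomerases was not tested.

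Genes of ER-associated degradation and of the translocon had 1 call among 10, against calls for 21.6% of the 18002 genes. EDEM3, of the family that trims mannose from misfolded glycoproteins, rose by 0.61 ± 0.20, to 1.53 times the group 7 level, with an adjusted p of 0.0147. Its relatives stood on either side of 0, EDEM2 at 0.27 ± 0.16 and EDEM1 at -0.33 ± 0.14, with an adjusted p of 0.0620 for EDEM1. The ubiquitin ligase gene SYVN1, encoding HRD1, had 0.089 ± 0.12, its adaptor SEL1L 0.23 ± 0.16 and HERPUD1, a scaffold of the same complex, -0.10 ± 0.13. The derlin genes, whose products form part of the exit channel, had -0.15 ± 0.11 for DERL1, 0.13 ± 0.13 for DERL2 and -0.64 ± 0.84 for DERL3. SEC61B, a subunit of the entry channel, was at -0.0053 ± 0.14, with an interval of -0.28 to 0.27.

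Of the sensors, the IRE1 gene alone was called. ERN1 rose by 0.72 ± 0.17, to 1.65 times the group 7 level (1.31 to 2.07), with an adjusted p of 0.000259 in the authors' deposited table. EIF2AK3, encoding PERK, had 0.37 ± 0.18 and an adjusted p of 0.131, and ATF6 0.13 ± 0.14. ATF6B, the paralog of ATF6, had -0.10 ± 0.13. XBP1, whose mRNA IRE1 splices, had 0.15 ± 0.13, with an interval of -0.10 to 0.40. A value per gene does not separate spliced from unspliced XBP1 mRNA, so IRE1 activity was not measured. Whether ERN1 differed from the other sensors was not tested.

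The subunits that direct phosphatase activity to eIF2alpha, and so undo the action of PERK, gave 1 call among 2 genes. Over the 18002 genes, 21.6% were called. PPP1R15B, the constitutive subunit CReP, rose by 0.33 ± 0.11, to 1.26 times the group 7 level, with an adjusted p of 0.0149. PPP1R15A, the stress-induced subunit GADD34, had -0.12 ± 0.24, and its interval of -0.58 to 0.34 took in the PPP1R15B value.

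**Figure D2:**
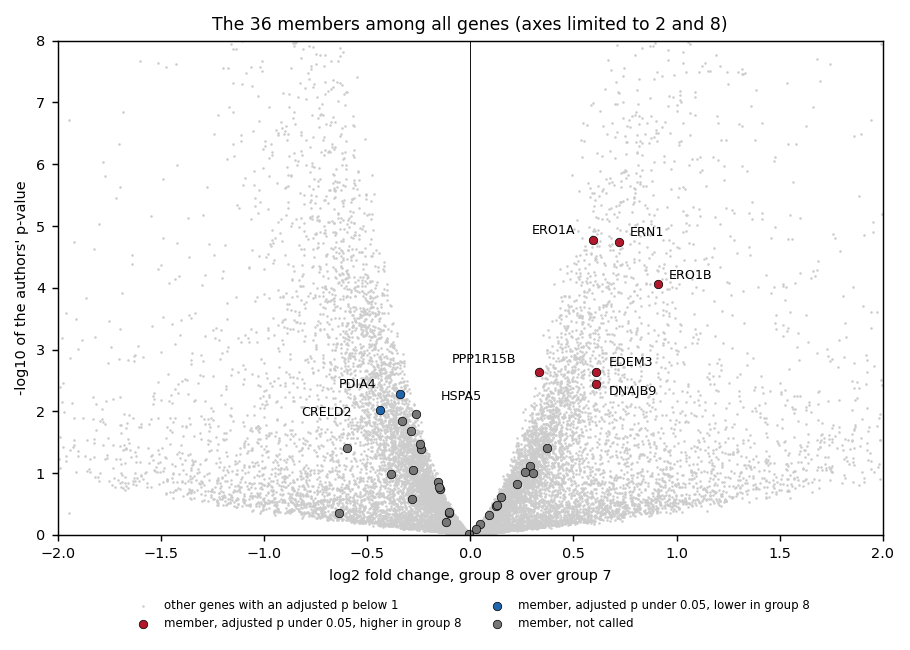
Log2 fold change, group 8 over group 7 (horizontal axis), against -log10 of the authors' p-value (vertical axis) for the 36 genes (large points) and the other genes with an adjusted p below 1 (small points), with axes limited to 2 and 8, which leaves out 857 of the 17966 other genes. HSPA5, at an adjusted p of 0.0513, lies beside the 2 genes called lower, and the 6 called higher lie within the cloud of other genes.

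Precision differed among the genes and bounds what could be seen. Implied SEs ran from 0.10 for HSPA5 to 0.84 for DERL3, with a median of 0.14 against 0.18 for the 13609 protein-coding genes. For 30 of the 36 genes the 95% interval lay within 1 of 0 on the log2 scale, and for 15 within 0.5. An unadjusted p under 0.05 was given for 15 genes, 7 higher and 8 lower. The share of all genes under this unadjusted threshold was not computed. These counts are therefore no result about the ER genes. Of the 7 of these without a call, 6 were lower, namely HSPA5, CALR, DNAJB11, P4HB, TXNDC5 and EDEM1, and 1 was higher, EIF2AK3. These 7 names were picked with their values in view.

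The library protocol in the labels names no step that marks strand, so where exons of opposite strands overlap, reads of either gene may be counted for the other. Exons of 17 of the 36 genes overlap exons of a gene on the other strand in GENCODE release 29. The largest overlap is that of DERL3, which shares 77.0% of its exonic bases with SMARCB1. SMARCB1 was itself called lower at -0.47 ± 0.14, so the DERL3 value is uncertain. PDIA6 shares 25.2% with ATP6V1C2. TXNDC5 shares 60.6% with the readthrough gene BLOC1S5-TXNDC5 on the same strand, and PDIA3 has a processed copy, PDIA3P1, at 0.057 ± 0.21, which can take its reads. Among the called genes, DNAJB9 shares 6.45% of its exonic bases with THAP5, which had 0.18 ± 0.17 and no call. It shares 3.49% with PNPLA8, which was called higher, as DNAJB9 was, at 0.40 ± 0.15. What this overlap adds to the DNAJB9 value was not tested. ERO1A shares 7.70% with an antisense gene.

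The genes with an ERSE did not share a direction. Of the 8, ERO1B was called higher and CRELD2 lower, 5 had negative values, and their median log2 fold change was -0.15. The other 25 genes with a promoter had 5 higher and 1 lower calls, 12 negative values and a median of 0.089. The 3 ERSE-II genes, HERPUD1, HYOU1 and SDF2L1, all had negative values without a call. Over the 18002 genes with an adjusted p below 1, 21.6% were called in either direction. These groups are small and were described, not tested. A match is only a stretch of letters, and it does not show that a factor binds there.

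CRELD2 shares its ERSE with ALG12, a mannosyltransferase gene of the N-glycan pathway that starts on the opposite strand. In both promoters the match is the same site, chr22:49918554-49918572. ALG12 was called lower at -0.54 ± 0.17 in the authors' deposited table, beside -0.44 ± 0.17 for CRELD2. Exons of the pair overlap by 168 bases, 3.25% of the exonic bases of CRELD2. ALG12 was the only gene called among the 9 measured genes with an ERSE outside the 36, and it was singled out after its value was seen. The shared promoter is printed on the CRELD2 strand, where the ERSE reads as its reverse complement, its motif letters in capitals (chr22:49918384-49918683, plus strand).
CRELD2 promoter: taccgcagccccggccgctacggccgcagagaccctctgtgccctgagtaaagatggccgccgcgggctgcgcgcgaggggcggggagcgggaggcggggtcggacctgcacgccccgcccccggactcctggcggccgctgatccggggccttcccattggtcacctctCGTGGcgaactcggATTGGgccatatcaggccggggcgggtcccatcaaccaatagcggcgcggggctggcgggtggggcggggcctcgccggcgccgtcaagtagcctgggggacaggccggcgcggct

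The shorter word ACGTGG, the core of the unfolded protein response element that XBP1 and ATF6 recognise, was present in 11 of the 33 genes (33.3%), against 3175 of all 27305 (11.6%). It can overlap the CCACG letters of ERSE-II, as it does in HERPUD1 and HYOU1. Of the 11 genes, DNAJB9 and EDEM3 were called higher and none was called lower. Calls in either direction made up 21.6% of the 18002 genes with an adjusted p below 1. The share called among all genes with the word was not computed, and a link between word and calls was not tested. DNAJB9 held 2 copies, both inside the gene span given above, and EDEM3 held 1, shown here because both genes were called (word in capitals).
DNAJB9, chr7:108569794-108569811, minus strand: acgcgcACGTGGaaaact
DNAJB9, chr7:108569820-108569837, plus strand: gggatcACGTGGggaggc
EDEM3, chr1:184755010-184755027, plus strand: agtgagACGTGGacaaaa
The other 22 genes with a promoter had 4 higher calls and 2 lower ones. PPP1R15B, ERN1, ERO1A and PDIA4 held none of the 3 motifs in this window.

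**Figure D3:**
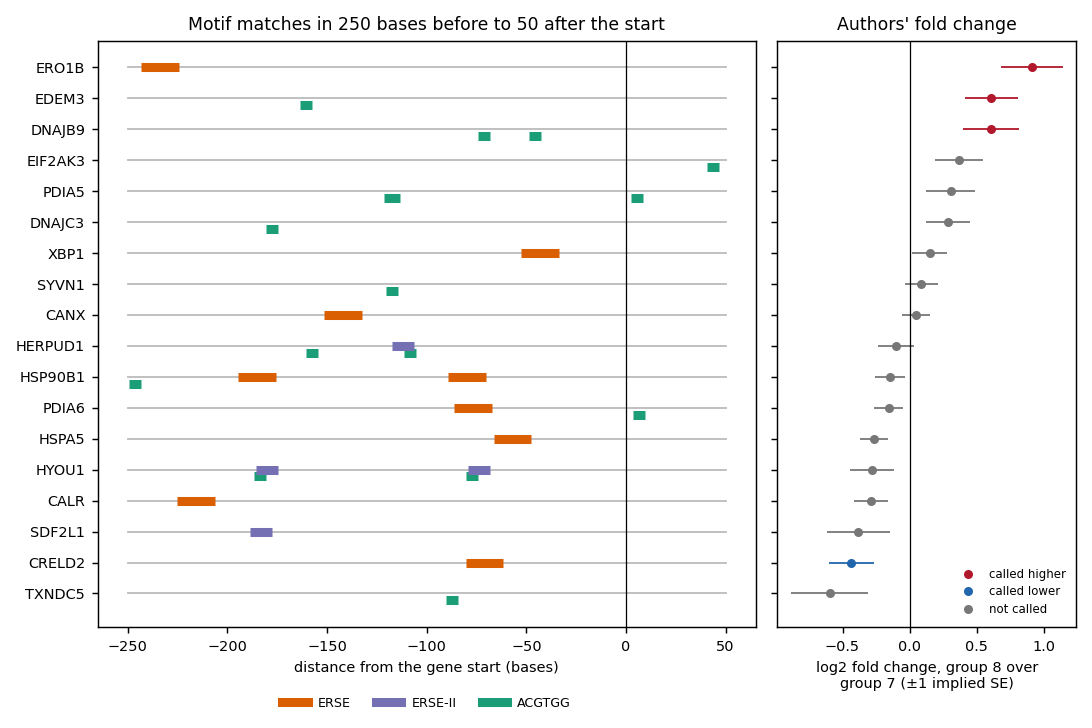
Left, positions of ERSE, ERSE-II and ACGTGG matches in the promoters of 18 ER genes. They are in bases from the RefSeq start (0, labelled gene start), which can lie inside the gene. Right, the log2 fold change of each gene, group 8 over group 7, with 1 implied SE, genes in order of that value. ERSE matches lie between 243 and 34 bases before the RefSeq start, in genes from ERO1B at 0.91 to CRELD2 at -0.44.

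Other genes of the same pathways were read from 10 lists of 166 genes, of which 164 were measured. The authors' deposited table called 12 of these higher and 18 lower, and the median was -0.050. These calls were 18.6% of the 161 with an adjusted p below 1, against 21.6% of the 18002 genes with such a value. In the PERK and ATF4 branch, 2 of 10 were higher and 1 lower. ATF4, the factor translated when eIF2alpha is phosphorylated, fell by 0.62 ± 0.14, while CHAC1, a glutathione-degrading enzyme gene that ATF4 induces, rose by 2.07 ± 0.42 and the lipoprotein receptor gene VLDLR by 1.26 ± 0.29. The ATF4 partner gene DDIT3, encoding CHOP, had -0.094 ± 0.32, TRIB3 0.11 ± 0.11 and ASNS 0.58 ± 0.59, without calls. Among the other eIF2alpha kinases and the eIF2B subunits, 2 of 9 were higher and 0 lower, EIF2AK2 (PKR) at 0.49 ± 0.14 and EIF2AK4 (GCN2) at 0.56 ± 0.13. The list of ATF6-type factors and the proteases that cleave ATF6 held 8 genes, among them NFE2L1, which is neither. Of these 8, 7 had an adjusted p below 1 and none was called.

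Among folding factors outside the 36 genes, 9.52% of 21 other thiol oxidoreductases were called in either direction, and 19 of these 21 had an adjusted p below 1. So were 22.2% of 18 BiP partners and prolyl isomerases and 29.2% of 24 N-glycan processing genes. The share over the 18002 genes with an adjusted p below 1 was 21.6%. Of the thiol oxidoreductases, GPX8, an ER peroxidase gene, rose by 1.15 ± 0.16 and TMX4, a membrane-bound thioredoxin-like gene, fell by 0.80 ± 0.16 on the log2 scale. Of the BiP partners and prolyl isomerases, 1 was higher and 3 lower. These were the Hsp70-like HSPA13 at 0.54 ± 0.15, and the J-domain genes DNAJC1 at -0.64 ± 0.16 and DNAJB12 at -0.41 ± 0.15 with the isomerase gene FKBP9 at -0.33 ± 0.12. Of the N-glycan processing genes, 2 were higher and 5 lower, with a median of -0.18. MCFD2, a cargo receptor subunit, had 0.67 ± 0.11 and CLGN, a relative of calnexin, 1.55 ± 0.42. MLEC, the lectin malectin, had -0.35 ± 0.11, and PRKCSH, the beta subunit of glucosidase II, -0.61 ± 0.19.

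For transport and degradation outside the 36 genes, calls again went both ways. The share called was 13.0% for translocon and signal recognition genes and 15.4% for measured degradation genes. It was 16.7% for KDEL receptor and COPII coat genes and 22.2% for measured ER calcium and stress modulators. Over the 18002 genes with an adjusted p below 1 it was 21.6%. Of 23 translocon and signal recognition genes, 1 was higher and 2 lower. The channel subunits SEC61G and SEC61A1 had 0.38 ± 0.14 and -0.36 ± 0.12, and SRPRB, a subunit of the signal recognition particle receptor, -0.52 ± 0.15. Of 26 measured degradation genes, 1 was higher and 3 lower. Among them were the conjugating enzyme genes UBE2G1 at 0.43 ± 0.15 and UBE2J2 at -0.56 ± 0.15, and the ligase gene TMEM129 at -0.58 ± 0.15. Of 18 KDEL receptor and COPII coat genes, 2 were higher, SEC24A at 0.62 ± 0.18 and SEC23B at 0.31 ± 0.12, and SEC13 was lower at -0.68 ± 0.18. Of 9 measured ER calcium and stress modulators, BCAP31 at -0.39 ± 0.13 and STC2 at -0.41 ± 0.15 were lower and none was higher.

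**Figure D4:**
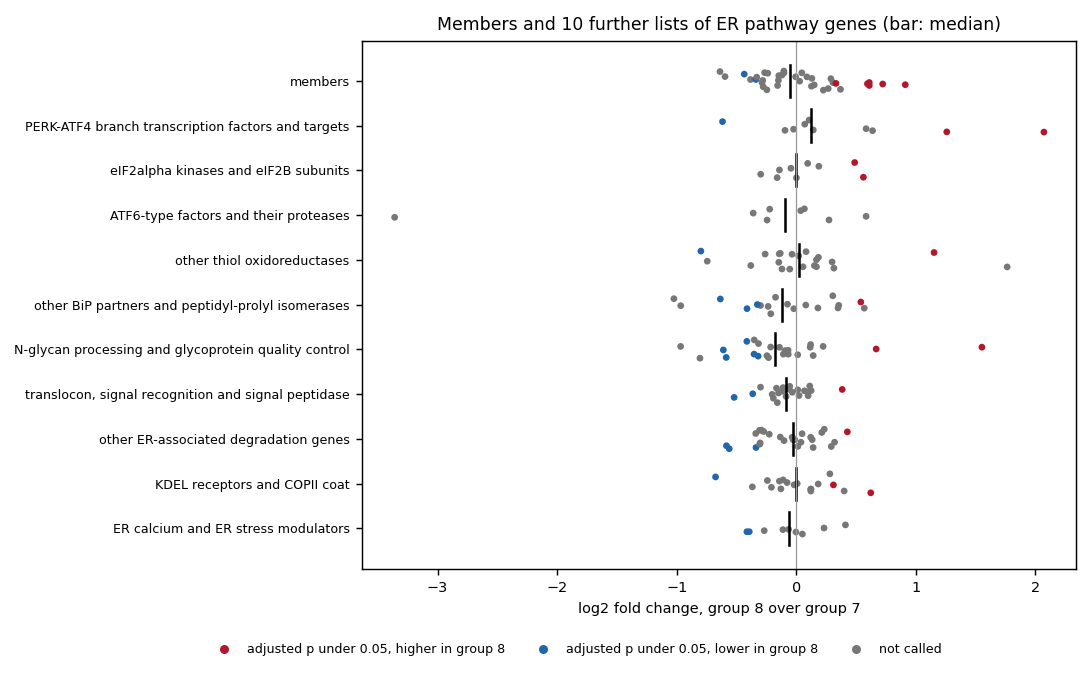
Log2 fold change, group 8 over group 7, of each measured gene in the 36-gene set and in 10 further lists, with the median of each list as a black bar. Medians lie between -0.18, for N-glycan processing, and 0.12, for the PERK and ATF4 branch, and called genes lie on both sides of 0 in most lists.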

How the data were processed

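The authors' deposited table gives a log2 fold change of group 8 over group 7 per gene, with a p-value and an adjusted p-value, per the file headers. Without roles or order, DESeq2 1.20.0, featureCounts 1.5.0-p3, HISAT2 2.0.5 and CASAVA are named, per the submitters' processing notes. The build is not given in the sources used here, but all 27655 gene identifiers and names match GENCODE release 29 (GRCh38), and 27651 have the same start and end. Gene length, start and end were other columns deposited by the authors.

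No count model was fitted here. The 20 columns of values per library or coded group were not used, because no label ties their codes to a sample. Each standard error is the size of the fold change (log2) over the z value that gives the two-sided p-value, in Python 3.11.15 with scipy 1.17.1, and assumes a Wald test. Calls are at an adjusted p under 0.05, adjusted over all genes. This arithmetic and the motif search were tested on simulated data. All 36 genes are named. In other lists, the called genes were named, at most the 4 with the smallest adjusted p where more than 5 were called, except that 1 result is not reported here. Uncalled genes named there were picked with their values in view. The genes and lists were chosen with earlier results of these data known. Promoters are from RefSeq (GRCh38.p14). For 27 of the 33 matched genes, the 20 bases after a start were found as given in a GENCODE transcript of the gene, and in none as the reverse complement. Alternative thresholds, adjustments and centring are given in the closing section.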

Additional observations from a re-analysis of the deposited data

How the results depend on the processing

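At an adjusted p under 0.01, 3 of the 36 genes (ERO1A, ERO1B and ERN1) were called higher and 0 lower, with 1222 higher and 1325 lower over all genes and 8 lower in the other pathway lists. At 0.10, 6 were called higher and 5 lower, with HSPA5, CALR and EDEM1 added to the lower ones. Over the 18002 genes with an adjusted p below 1, 2361 were then higher and 2573 lower. Requiring a log2 change of 0.5 or more in size, 5 of the 36 genes were called higher and 0 lower. Over all genes, 1536 were then higher and 1460 lower, and 9 were lower in the other lists. Requiring 1 or more, 0 were called higher and 0 lower, with 647 and 431 over all genes and 4 and 0 in the other lists. Adjusting over every deposited p-value left 1 lower, as CRELD2 reached 0.0698. Adjusting over protein-coding genes gave HSPA5 an adjusted p of 0.0425. Allowing 1 mismatch in the ERSE letters gave 14 genes of 33, against 517 of 27305 genes (1.89%). The other counts stayed within 1.5 times, and centring on the median of protein-coding genes (0.017) or of genes with an adjusted p below 1 changed the sign of SEC61B alone, under the second. The causes were not tested beyond what each setting does by construction. Leaving out libraries, other count models and low-count filters were not run, since values per library were not used. No paired analysis was possible because the columns carry no replicate numbers. Depth per library is not given, and intervals rest on the assumed Wald test.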
